A study of Homo sapiens with 16 samples.

Results

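The MYC, MAX and MXD network is a set of transcription factors that share a helix-loop-helix leucine zipper, and it was followed here through 10 genes chosen by symbol: MYC, MAX, MXD1, MXD3, MXD4, MXI1, MNT, MGA, MLX and MLXIP. All 10 were found among the 60662 gene identifiers of the count tables, and all 10 were among the 14092 genes that passed the filter on low counts. RNA was sequenced from Jurkat E6-1, an established human T cell line with the genotype WT and lymphoma as its labelled type. The treated cells had stood for 4 h in PBS, a saline buffer, with 10 µM hydrogen peroxide, and the control cells were collected untreated at 0 h. Each group held 8 libraries, 4 in batch 1 and 4 in batch 2, a split given by the names of the deposited tables. Cells kept in PBS for 4 h without peroxide were not analysed here, so peroxide, saline and time cannot be told apart in any difference below.

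MYC binds DNA at the E-box, a short element with the letters CACGTG, only as a dimer with MAX, and the dimer raises transcription of genes for growth and ribosome making. The MXD proteins, MXI1 and MNT also pair with MAX, bind the same element and recruit the SIN3 corepressor, so they compete with MYC for MAX and for sites. MGA pairs with MAX too, within a repressive Polycomb complex called PRC1.6. MLX is the MAX-like partner of a second branch, in which it pairs with MLXIP, also named MondoA, a sensor of glucose metabolites that drives TXNIP and ARRDC4. In T cell leukaemia MYC is known as a driver of growth, and MXD1 as a gene that rises when cells stop dividing and mature.

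After peroxide the cells had more MXD1 mRNA, less MYC and MGA mRNA, and close to the same MAX mRNA as control cells. MXD1 stood at 75.3 ± 13.6 CPM after peroxide and 11.4 ± 1.98 CPM in controls (SD, n = 8 each), a 6.49-fold higher level. MYC stood at 166.6 ± 24.7 CPM after peroxide and 272.6 ± 73.6 CPM in controls (SD, n = 8 each). Levels are given as CPM, each gene's reads relative to the library's size after scaling with TMM factors. Of the 10 genes 3 rose (MXD1, MXD4 and MNT), 4 fell (MYC, MGA, MLX and MLXIP) and 3 (MAX, MXD3 and MXI1) did not pass, with edgeR's quasi-likelihood test at a Benjamini-Hochberg adjusted p under 0.05 over all genes tested. The same test called 48.3% of all genes, 24.1% higher and 24.3% lower, so 7 calls among 10 genes are not far from that background. The median log2 fold change of the 10 genes was 0.01, against -0.01 over all genes tested.

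Promoters of 4 called genes are shown, that of MXD1 as the gene with the largest rise and those of MXD4, MNT and MLX because they hold the E-box, the site for which MYC, the MXD proteins and MNT compete. Windows of MGA and MLXIP, which were also called, hold no CACGTG and are not printed. RefSeq windows ran from 250 bases before to 50 bases after a start site (build GRCh38.p14). They were at hand for 9 of the 10 genes, 14 windows in all. No window was at hand for MYC, so its promoter was not searched. The letters CACGTG, which read the same on both strands, occurred in 3 of the 14 windows, those of MXD4, MNT and MLX, and in 7.26% of all 35116 promoter windows. The related letters CACGCG, searched on both strands and not overlapping CACGTG, occurred in windows of MXD3, MXI1 and MGA and in 11.4% of all windows. The windows are printed 5′ to 3′ along the gene, with CACGTG in capitals and all other bases in lower case.
MXD1, chr2:69914859-69915158, strand +: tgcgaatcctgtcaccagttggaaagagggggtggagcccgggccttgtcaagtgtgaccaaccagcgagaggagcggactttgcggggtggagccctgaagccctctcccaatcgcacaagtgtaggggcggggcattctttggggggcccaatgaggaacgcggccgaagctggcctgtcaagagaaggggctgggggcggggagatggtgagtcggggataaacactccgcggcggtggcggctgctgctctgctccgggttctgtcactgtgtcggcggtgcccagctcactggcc
MXD4, chr4:2262060-2262359, strand -: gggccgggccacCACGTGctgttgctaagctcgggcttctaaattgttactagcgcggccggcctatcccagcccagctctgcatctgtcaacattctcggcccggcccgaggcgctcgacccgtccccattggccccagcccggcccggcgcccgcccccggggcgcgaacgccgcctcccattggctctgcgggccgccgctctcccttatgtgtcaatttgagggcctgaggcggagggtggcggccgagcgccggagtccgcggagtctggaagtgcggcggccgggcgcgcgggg
MNT, chr17:2401011-2401310, strand -: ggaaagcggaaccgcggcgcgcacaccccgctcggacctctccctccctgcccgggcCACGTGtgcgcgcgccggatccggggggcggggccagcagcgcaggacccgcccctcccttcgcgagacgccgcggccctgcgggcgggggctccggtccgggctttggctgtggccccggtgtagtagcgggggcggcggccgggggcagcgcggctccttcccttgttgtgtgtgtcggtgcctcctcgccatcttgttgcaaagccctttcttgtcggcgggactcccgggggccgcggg
MLX, chr17:42566850-42567149, strand +: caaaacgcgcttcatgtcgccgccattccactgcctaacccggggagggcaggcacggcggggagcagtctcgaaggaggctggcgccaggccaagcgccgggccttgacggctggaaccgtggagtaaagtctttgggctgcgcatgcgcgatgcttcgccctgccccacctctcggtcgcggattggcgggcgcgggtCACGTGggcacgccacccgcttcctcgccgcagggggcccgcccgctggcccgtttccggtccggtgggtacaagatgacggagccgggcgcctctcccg
The window of MXD1, the gene with the largest rise, held neither set of letters. In MXD4 the first base of the E-box lay 238 bases before the start site, in MNT 193 bases and in MLX 50 bases. MXD4 and MNT rose and MLX fell. A match is a description of the letters and not a bound site.

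Sequencing depth was 7378435 to 10090165 reads in genes in peroxide libraries and 5556553 to 15720881 in control libraries. The share of counted reads that were not aligned uniquely was 33.3% to 45.8% after peroxide and 30.2% to 47.2% in controls. The 47.2% was that of control replicate 1, and the next highest control was at 33.7%, so the share was mostly higher after peroxide. The part of this share in the differences was not tested. The 10 T cell markers checked were all detected in every library, and 2 of them fell, 0 rose and 8 did not pass. That is 20% called, against 48.3% called and 24.3% called lower among all genes, and their median log2 fold change was -0.06. CD3G fell to 121.7 ± 12.6 CPM after peroxide, against 171.7 ± 29.5 CPM in controls, and CD2 to 109.4 ± 20.3 CPM, against 130.5 ± 26.7 CPM (SD, n = 8 each). The call of CD2 was lost in batch 2 alone and with no batch term. Of 6 B cell markers CD79A was at 31.2 to 54.3 CPM after peroxide and 29.7 to 49.99 CPM in controls, and the other 5 were below the filter. Of 6 myeloid markers CD14 rose, with 1.98 to 5.30 CPM after peroxide and 0.0595 to 0.581 CPM in controls, and the other 5 were below the filter. All libraries come from 1 cell line, and in bulk samples a change in all cells and a change in a part of them cannot be told apart.

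**Figure D1:**
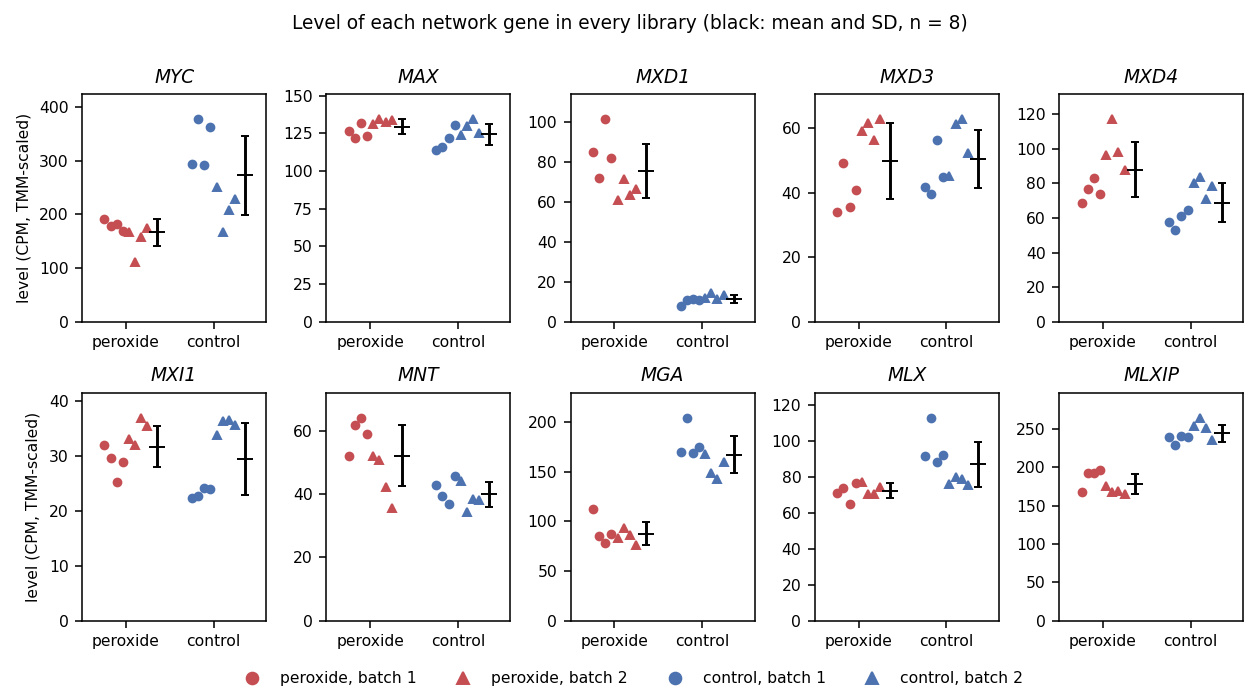
Level of each of the 10 genes in every library (CPM with TMM scaling, axes from 0), with peroxide libraries on the left and control libraries on the right of each panel, circles for batch 1, triangles for batch 2, and black bars for the mean and SD of 8 libraries. MXD1 is higher in all 8 peroxide libraries than in any control, and MGA and MLXIP are lower in all 8.

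MYC, the activator of the network, was lower after peroxide in both batches. Its level was 111.2 CPM at the lowest, 171.7 at the median and 191.8 at the highest after peroxide, against 166.5, 270.7 and 378.3 CPM in controls. The groups overlapped only through batch 2, where the peroxide libraries held 111.2 to 175.4 CPM and the controls 166.5 to 250.1 CPM. In batch 1 they stood apart, at 168.0 to 191.8 CPM after peroxide and 291.2 to 378.3 CPM in controls. The log2 fold change was -0.68 ± 0.10 (SE; edgeR quasi-likelihood test, Benjamini-Hochberg adjusted p = 1.10e-05). Within batches it was -0.88 ± 0.13 in batch 1 and -0.48 ± 0.13 in batch 2, and the test of that difference did not pass (edgeR interaction of batch and group, adjusted p = 0.216). MYC reads numbered 1023 to 1594 per library after peroxide and 1999 to 3548 in controls, so counting error is small beside the spread between libraries.

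MAX, the partner that MYC and its competitors share, hardly differed between the groups. Its level was 122.0 CPM at the lowest, 131.4 at the median and 134.7 at the highest after peroxide, against 114.2, 124.7 and 134.2 CPM in controls. The ranges lay almost on each other. The log2 fold change was 0.06 ± 0.05 (SE; edgeR, adjusted p = 0.336), with a 95% interval from -0.04 to 0.16. Scaled by total counts instead of TMM factors it was -0.0052, still not called.

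MXD1, the MAX partner and repressor with the lowest control level per exon length of the 10 genes, was the gene that moved most. Its level was 60.7 CPM at the lowest, 71.6 at the median and 101.7 at the highest after peroxide, against 7.64, 11.4 and 14.4 CPM in controls. The highest control lay far below the lowest peroxide library. The log2 fold change was 2.698 ± 0.119 (SE; edgeR quasi-likelihood test, Benjamini-Hochberg adjusted p = 2.58e-13), and 1.299% of all genes tested had a larger change in either direction. MXD1 reads numbered 496 to 773 per library after peroxide and 57 to 242 in controls.

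The rise of MXD1 was smaller in batch 2 than in batch 1. Batch 2 libraries held 65.5 ± 4.61 CPM after peroxide and 12.7 ± 1.39 CPM in controls (SD, n = 4 each), a log2 fold change of 2.36 ± 0.12 (SE). Batch 1 libraries held 85.1 ± 12.4 CPM after peroxide and 10.2 ± 1.72 CPM in controls (SD, n = 4 each), a log2 fold change of 3.08 ± 0.13 (SE). The difference, batch 2 minus batch 1, was -0.72 ± 0.18 (SE; edgeR interaction, Benjamini-Hochberg adjusted p = 0.0254), and MXD1 was the only 1 of the 10 genes so called, against 4.88% of all genes. This call was lost without peroxide replicate 5 or without control replicate 1, 6 or 8 (edgeR interaction, adjusted p 0.0502 to 0.0741). The direction of the difference stayed in those fits, at -0.70 to -0.55.

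The other MXD family genes moved little. MXD4 held 68.7 CPM at the lowest, 85.7 at the median and 117.4 at the highest after peroxide, against 52.9, 67.9 and 83.6 CPM in controls. The pooled ranges overlapped, since both groups were lower in batch 1, but within batch 1 and within batch 2 every peroxide library lay above every control. Its log2 fold change was 0.35 ± 0.06 (SE; edgeR, adjusted p = 0.000122), and it was 0.35 in batch 1 and 0.35 in batch 2. MXI1 held 25.2 CPM at the lowest, 32.0 at the median and 36.9 at the highest after peroxide, against 22.3, 28.9 and 36.4 CPM in controls, and the ranges overlapped. Its log2 fold change of 0.12 ± 0.07 (SE) did not pass (edgeR, adjusted p = 0.178), with a 95% interval from -0.04 to 0.28. Batch 1 controls had 22.3 to 24.1 CPM of MXI1, while those of batch 2 had 33.7 to 36.4 CPM. The log2 fold changes were 0.31 ± 0.09 in batch 1 and -0.05 ± 0.08 in batch 2 (SE). The test of that difference did not pass (interaction adjusted p = 0.0907, edgeR). MXD3 held 33.9 CPM at the lowest, 52.8 at the median and 62.8 at the highest after peroxide, against 39.6, 48.7 and 63.0 CPM in controls, and the groups lay on each other. Its log2 fold change was -0.04 ± 0.09 (SE; edgeR, adjusted p = 0.736), with a 95% interval from -0.25 to 0.16. MXD3 shares 22.5% of its annotated exon bases with PRELID1 on the other strand and 18.0% with RAB24 on the same strand, so its counts can lack reads that fit both or hold reads of its neighbours.

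MNT, a broadly expressed repressor that pairs with MAX and MLX, was higher after peroxide, mostly in batch 1. Its level was 35.5 CPM at the lowest, 52.0 at the median and 64.2 at the highest after peroxide, against 34.3, 38.9 and 45.6 CPM in controls. The overlap came from peroxide replicates 7 and 8 in batch 2, while in batch 1 the peroxide libraries held 52.0 to 64.2 CPM and the controls 36.7 to 45.6 CPM. The log2 fold change was 0.37 ± 0.09 (SE; edgeR, adjusted p = 0.00121). It was 0.52 ± 0.11 in batch 1 and 0.23 ± 0.11 in batch 2, and MNT lost its call in batch 2 alone (adjusted p = 0.138, edgeR). The test of the difference between batches did not pass (interaction adjusted p = 0.302, edgeR). MNT shares 12.2% of its exon bases with the antisense gene AC006435.1 on the other strand, so reads of these genes may not have been told apart.

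MGA, the large scaffold that joins MAX to PRC1.6, had the largest fall of the 10 genes on the log2 scale. Its level was 75.9 CPM at the lowest, 85.8 at the median and 112.0 at the highest after peroxide, against 142.5, 168.5 and 204.5 CPM in controls. No peroxide library reached the lowest control. The log2 fold change was -0.93 ± 0.07 (SE; edgeR, adjusted p = 9.36e-10), a level 0.527 times that of controls, and 7.76% of all genes had a larger change. Both batches showed the fall, at -0.98 ± 0.10 and -0.87 ± 0.10 on the log2 scale (SE; interaction adjusted p = 0.693, edgeR).

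Both genes of the glucose-sensing branch were lower after peroxide. MLXIP held 165.5 CPM at the lowest, 172.3 at the median and 197.0 at the highest after peroxide, against 228.9, 240.4 and 265.0 CPM in controls. The groups did not overlap. Its log2 fold change was -0.45 ± 0.05 (SE; edgeR, adjusted p = 5.51e-07), with -0.34 ± 0.07 in batch 1 and -0.57 ± 0.07 in batch 2. MLX held 65.1 CPM at the lowest, 72.4 at the median and 77.5 at the highest after peroxide, against 75.4, 84.4 and 113.1 CPM in controls. The groups overlapped in batch 2 and not in batch 1, where controls held 88.6 to 113.1 CPM. The log2 fold change of MLX was -0.25 ± 0.07 (SE; edgeR, adjusted p = 0.00385), from -0.42 ± 0.08 in batch 1 and -0.09 ± 0.08 in batch 2, and its call was lost in batch 2 alone (adjusted p = 0.308, edgeR). The test of the difference between batches passed for neither gene (edgeR interaction, adjusted p = 0.0854 for MLX and 0.154 for MLXIP). MLX shares 18.1% of its exon bases with PSMC3IP on the other strand, so reads of these genes may not have been told apart.

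Across the 10 genes, the ranges of 3 (MXD1 above, MGA and MLXIP below) did not overlap between the groups, against 11.3% of all genes tested, 6.76% above and 4.49% below. Long transcripts were lower more often in these libraries. Tested genes were cut into 5 equal classes by exon length. In the longest class 37.0% of genes were called lower and 16.1% higher, and in the shortest class 14.0% were called lower and 29.7% higher. MGA with 17651 exon bases, MLXIP with 13905 and MNT with 8728 belong to the longest class, where the median log2 fold change was -0.11. MYC with 3001 exon bases lies in class 2 from the short end, where the median was 0.02. The part of transcript length in these results was not tested.

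**Figure D2:**
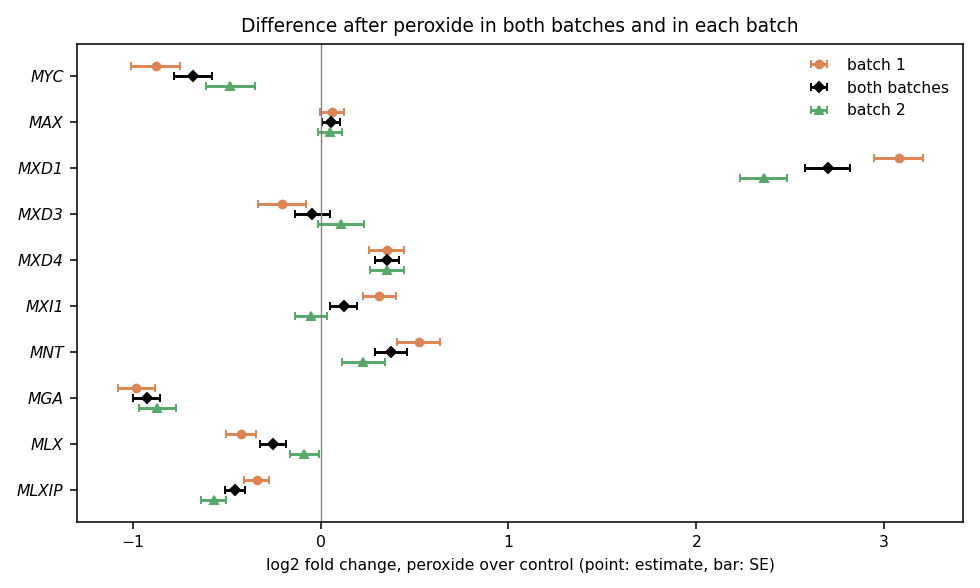
Log2 fold change, peroxide over control, of each of the 10 genes from all libraries and from each batch, with bars for the SE. MXD1 lies at 2.36 in batch 2 and 3.08 in batch 1, MGA near -0.9 in both, and MXD3 and MXI1 lie on opposite sides of 0 in the 2 batches. The difference between batches did not pass for MXD3 or MXI1 (edgeR interaction, adjusted p = 0.316 and 0.0907).

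The balance of MYC to its partners was followed as a ratio within each library, which depends little on how libraries are scaled. The log2 ratio of MYC to MXD1 was 1.14 ± 0.29 after peroxide and 4.49 ± 0.59 in controls (SD, n = 8 each), with ranges of 0.64 to 1.45 and 3.49 to 5.18 that did not overlap. The difference of -3.34 had p = 0.000408 in an exact permutation test within batches, two-sided, the smallest p that this test can give, and adjusted p = 0.00184 over the 9 ratios. Every peroxide library had a lower ratio of MYC to MXD1 than every control. The log2 ratio of MYC to MAX was 0.35 ± 0.28 after peroxide and 1.08 ± 0.45 in controls (SD, n = 8 each), a difference of -0.73 (exact permutation adjusted p = 0.00184). The ratios of MYC to MNT and to MXD4 differed by -1.04 and -1.03 (exact permutation adjusted p = 0.00184 each). Those to MXI1, MXD3 and MLX differed by -0.80, -0.64 and -0.42 (exact permutation adjusted p = 0.00220, 0.00577 and 0.00245). All 9 ratios share MYC and are not independent. Those to MAX, MXD3 and MXI1, which were not called themselves, largely restate the fall of MYC.

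MYC and MGA fell by amounts that could not be told apart with this test. The log2 ratio of MYC to MGA was 0.91 ± 0.31 after peroxide and 0.66 ± 0.27 in controls (SD, n = 8 each), a difference of 0.25 (exact permutation p = 0.0669, adjusted p = 0.0753). For MLXIP the ratio was -0.11 ± 0.23 after peroxide and 0.11 ± 0.46 in controls (SD, n = 8 each), a difference of -0.22 (exact permutation p = 0.150). The call for MXD3 was lost with labels permuted over all libraries (exact permutation adjusted p = 0.0601). Within batch 1 alone 7 of the 9 ratios passed, but MXD3 did not (exact permutation adjusted p = 0.0643) and MLXIP did (exact permutation adjusted p = 0.0367). Within batch 2 alone 0 passed, where the smallest exact permutation p that 4 against 4 libraries allow is 0.0286. In batch 2 the ratio to MXD1 still differed by -2.81 with no overlap (exact permutation p = 0.0286, adjusted p = 0.129).

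**Figure D3:**
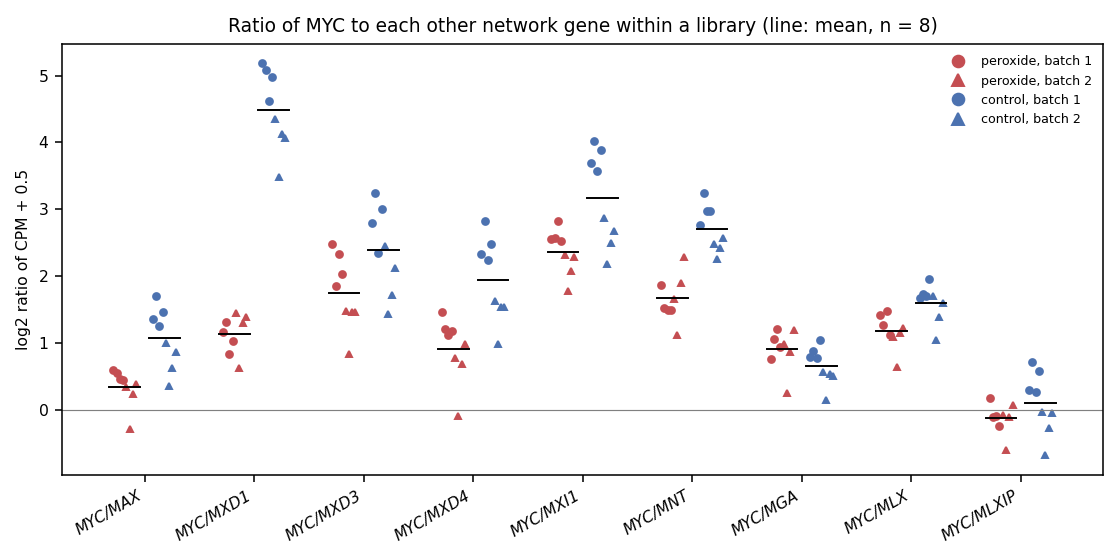
Log2 ratio of MYC to each of the other 9 genes within every library (CPM + 0.5), peroxide on the left and control on the right of each pair, with circles for batch 1, triangles for batch 2 and a line at the mean of 8 libraries. The ratio to MXD1 has means of 1.14 and 4.49 and does not overlap between the groups, and the ratios to the other 8 genes do.

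Levels of different genes were compared as CPM per kb of exons in GENCODE gene models, which may differ from those used for counting. MYC was the most abundant of the 10 by this measure in both groups, at 55.5 ± 8.22 CPM per kb after peroxide and 90.8 ± 24.5 CPM per kb in controls (SD, n = 8 each). MAX came next, at 29.2 ± 1.11 and 28.1 ± 1.58 CPM per kb, and no peroxide or control library of MAX reached the lowest MYC library of its group. MLX and MLXIP followed in both groups. MXD1 was last in controls at 1.80 ± 0.311 CPM per kb, below MNT with no overlap. After peroxide MXD1 stood sixth at 11.9 ± 2.14 CPM per kb, in a run with MLXIP, MXD4 and MXD3 whose neighbours overlapped. MGA stood last after peroxide at 4.97 ± 0.633 CPM per kb, against 9.47 ± 1.06 CPM per kb in controls, and its range overlapped that of MNT after peroxide and that of MXD4 in controls.

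The repressors that pair with MAX and bind SIN3 (MXD1, MXD3, MXD4, MXI1 and MNT) summed to 42.6 to 52.6 CPM per kb in peroxide libraries and 26.3 to 37.8 CPM per kb in controls. MXD1 made up 20.0% to 33.7% of that sum after peroxide and 4.41% to 6.40% in controls. The level of MYC was 1.20 ± 0.231 times the sum after peroxide and 2.94 ± 1.15 times in controls (SD, n = 8 each). Within batch 1 and within batch 2 every peroxide value lay below every control value, and the pooled ranges met only between peroxide replicate 1 of batch 1 and control replicate 6 of batch 2. These sums describe mRNA and are given without a test, since they follow from genes already tested.

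**Figure D4:**
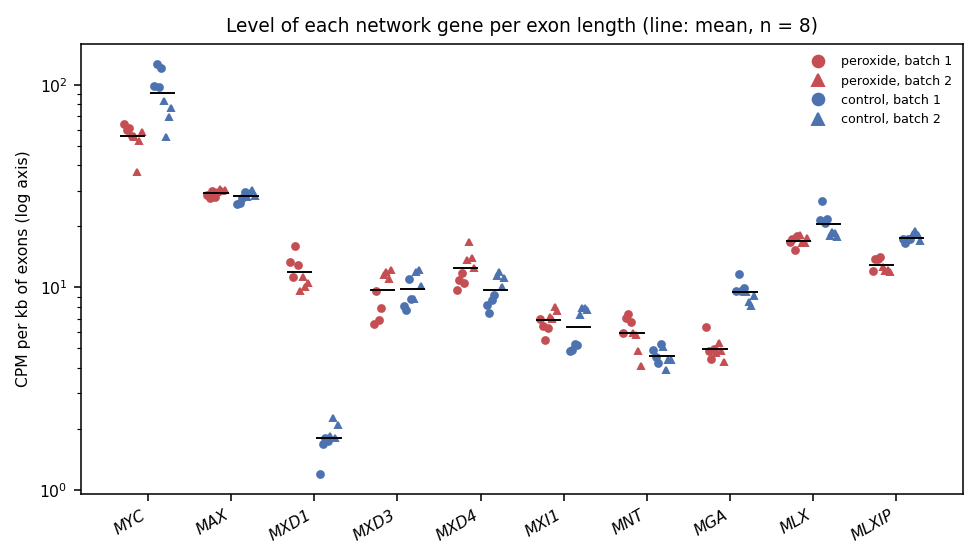
Level of each of the 10 genes as CPM per kb of exons (log axis) in every library, peroxide left of control, with circles for batch 1, triangles for batch 2 and a line at the mean of 8 libraries. MXD1 lies amid the peroxide means at 11.9 CPM per kb and is the lowest of the control means at 1.80 CPM per kb.

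Relatives of the members outside the 10 were scarce. MYCN, a MYC paralog of neural and other progenitors, fell, with 0.361 to 1.73 CPM after peroxide and 2.16 to 4.87 CPM in controls (log2 fold change -1.51 ± 0.24, SE; edgeR, adjusted p = 2.21e-05). MYCL stood at 3.83 ± 0.951 CPM after peroxide and 4.74 ± 0.554 CPM in controls (SD, n = 8 each) and did not pass (edgeR, adjusted p = 0.0649). MLXIPL, the MLXIP paralog of liver, had 4 reads in all peroxide libraries and 4 in all controls and was below the filter.

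Counts in the connected lists below stand beside a background of 48.3% of all genes called, 24.1% higher and 24.3% lower, and a median of -0.01. Of 5 tested targets of MLXIP and MLX, TXNIP and ARRDC4 fell, PFKFB3 and HK2 rose and LDHA did not pass, with a median log2 fold change of 0.08, and so few genes say little against that background. TXNIP, an arrestin that limits glucose uptake, was at 0.762 ± 0.551 CPM after peroxide and 2.51 ± 1.64 CPM in controls (SD, n = 8 each), from 52 and 231 reads in all. ARRDC4 was at 5.78 ± 3.51 CPM after peroxide and 18.1 ± 14.0 CPM in controls, and its log2 fold change was -0.76 in batch 1 and -1.86 in batch 2. PFKFB3, which makes an activator of glycolysis, held 76.9 to 135.7 CPM after peroxide and 42.0 to 61.0 CPM in controls, without overlap. HK2, a hexokinase also listed among the targets MYC raises, stood at 65.4 ± 5.70 CPM after peroxide and 59.6 ± 7.95 CPM in controls, and its call was lost with total counts, under the replicate block and in 19 of 26 alternatives in all.

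Of 60 tested genes that MYC is known to raise, 20 rose, 8 fell and 32 did not pass, and the median log2 fold change was 0.09 against -0.01 over all genes. The 46.7% called is near the 48.3% called among all genes. The risen genes included the nucleolar proteins GNL3 (0.77 ± 0.08, SE) and NPM1 (0.64 ± 0.07) and the ribosome factor WDR74 (0.80 ± 0.10). CAD, the enzyme that starts pyrimidine synthesis, fell to 266.6 ± 19.6 CPM after peroxide, against 353.9 ± 60.7 CPM in controls (SD, n = 8 each), a log2 fold change of -0.39 ± 0.06 (SE). Scaled by total counts instead, 13 of these genes were called lower. NPM1 has many near-identical copies in the genome, so its level is uncertain.

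Of 8 tested genes that MYC is known to hold down, 5 rose (CDKN1A, DDIT3, GADD45A, NDRG1 and CEBPA), 0 fell, and CDKN1B, CDKN2C and NDRG2 did not pass, with a median log2 fold change of 1.21. That is 62.5% called, against 48.3% called and 24.1% called higher among all genes. CDKN1A, an inhibitor of cyclin-dependent kinases, stood at 15.03 ± 4.99 CPM after peroxide and 1.07 ± 0.272 CPM in controls (SD, n = 8 each). GADD45A, a DNA damage and stress gene, stood at 30.1 ± 9.75 CPM after peroxide and 10.7 ± 1.29 CPM in controls (SD, n = 8 each). DDIT3, CDKN1A and GADD45A also answer to stress factors other than MYC, and the part of MYC in their rise was not tested. CDKN2B had 0 reads in all 16 libraries.

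Of 11 genes that act on MYC protein turnover, 6 fell and 0 rose, with a median log2 fold change of -0.25. That is 54.5% called, all of them lower, against 48.3% called and 24.3% called lower among all genes. SKP2, a subunit of a ubiquitin ligase that targets MYC, fell to 53.9 ± 6.97 CPM after peroxide, against 109.8 ± 31.1 CPM in controls (SD, n = 8 each). The ligase HUWE1 and the deubiquitinase USP28 had log2 fold changes of -0.43 ± 0.06 and -0.54 ± 0.08 (SE), and BTRC, another ligase subunit, one of -0.33 ± 0.06. Protein levels were not measured.

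Of 16 cofactors of MYC 4 rose and 4 fell, with a median of 0.06, a share near the 48.3% called among all genes. The scaffold TRRAP fell by 0.55 on the log2 scale, the remodeller EP400 by 0.31 and the elongation kinase CDK9 by 0.25, and the acetyltransferase KAT5 rose by 0.37 ± 0.07 (SE). Of 16 genes of the SIN3 and NCOR corepressors, which MXD proteins recruit, 7 rose and 5 fell, with a median close to 0, against 24.1% higher and 24.3% lower among all genes. SAP18 and ING1 rose by 0.72 each on the log2 scale, NCOR1 fell by 0.44, and RBBP7 rose by 0.28.

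Of 10 partners of MGA in PRC1.6, 4 rose and 1 fell, with a median of 0.11, a share near the 48.3% called among all genes. RYBP stood at 102.5 ± 13.8 CPM after peroxide and 52.3 ± 7.98 CPM in controls (SD, n = 8 each), without overlap. E2F6, a repressor of the E2F family, rose by 0.59 ± 0.08 (SE), CBX3, which reads methylated histones, by 0.24 ± 0.07, and TFDP1 fell by 0.23 on the log2 scale. Of 11 genes that act on MYC mRNA or its locus 8 rose and 3 fell, with a median of 0.35, against 24.1% higher and 24.3% lower among all genes. ZFP36, which speeds the decay of mRNAs with AU-rich elements, stood at 123.7 ± 35.3 CPM after peroxide and 23.1 ± 5.47 CPM in controls (SD, n = 8 each). FUBP1, which binds an element upstream of MYC, rose by 0.66 ± 0.08, HNRNPK by 0.40 ± 0.05 and HNRNPD by 0.38 ± 0.06 (SE).

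**Figure D5:**
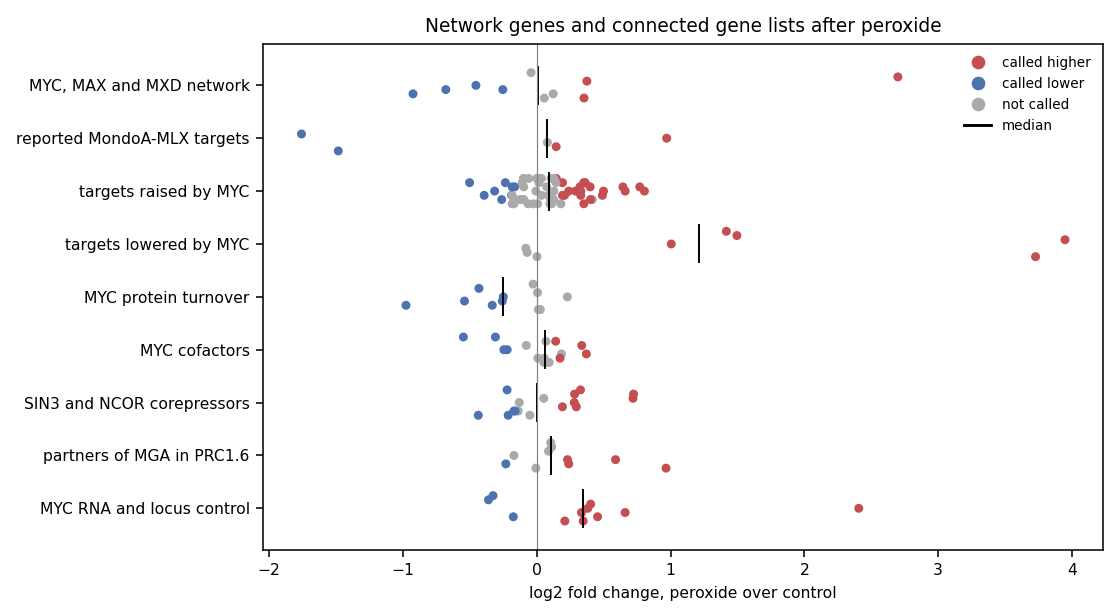
Log2 fold change, peroxide over control, of the tested genes of the network and of 8 connected lists, coloured by call, with a black line at the median of each list. Targets lowered by MYC have a median of 1.21, targets raised by MYC one of 0.09, and genes of MYC protein turnover one of -0.25.

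The genes whose profile over the 16 libraries was most like that of a member were found by the root-mean-square difference of log2 CPM, each gene centred on its own mean. For MYC, among 10809 genes that averaged at least 5 CPM, these were KNOP1 (0.13), WDR4 (0.14), IDH1 (0.16) and POLR1B (0.16). KNOP1 stood at 23.6 ± 3.20 CPM after peroxide and 38.7 ± 8.75 CPM in controls (SD, n = 8 each). For MXD1 they were FAM53C (0.27), BTG1 (0.31), CHRNA10 (0.31) and RSRP1 (0.34), with log2 fold changes of 2.39 to 2.72. For MGA they were BIRC6 (0.13), SYNE2 (0.14), PRKDC (0.14) and SHPRH (0.15), with log2 fold changes of -0.83 to -0.71. Among the members themselves the nearest to MYC was MGA (0.30), MLX and MLXIP were nearest to each other (0.21), and MXD1 had no near neighbour, with MNT the closest at 1.20.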

How the data were processed

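Total RNA of 16 libraries from Jurkat E6-1 cells, 8 treated and 8 control, was sequenced. The authors deposited 1 table of raw read counts per gene for each library, made with STAR 2.7.1a and HTSeq 0.6.1 on build hg19, per the submitters' processing notes. No source used here states the strand setting of counting. Lines that name no gene (43.5% to 57.6% of a table's reads) were left out. The libraries are called biological replicates, with no statement on separate cultures, so p-values measure the spread between these libraries. No pairing of treated with control libraries by replicate number was seen, though the check cannot exclude one.

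Genes were kept with filterByExpr (99.6% of reads in genes), normalised by TMM, and tested in edgeR 4.0.16 (R 4.3.3, glmQLFit and glmQLFTest) with batch and group as terms, and p-values were adjusted with the Benjamini-Hochberg method over the 14092 genes kept. A second fit added the interaction of batch and group. Ratios of MYC to each partner, log2 of CPM + 0.5, were compared with an exact permutation test within batches over 4900 arrangements. Symbols came from a gene name table (99.5% of identifiers), exon lengths from GENCODE and promoters from RefSeq. The scripts were tested on simulated data. Alternatives were total counts, DESeq2 1.42.0, limma-voom 3.58.1, other filters, no batch term, a replicate block, each batch alone and leaving out libraries.

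The members and lists were chosen with earlier results of these data known. From each list up to 4 genes averaging at least 1 CPM were named in order of p, with TXNIP and ARRDC4 in any case, and for MYC, MXD1 and MGA the 4 genes most like each in profile. LDHA, CEBPA, CDKN1B, CDKN2C, NDRG2, CREBBP, ELAVL1 and FARSA fell outside that rule and were named after their values were seen. MLXIPL and CDKN2B, which were below the filter, also fell outside it.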

Additional observations from a re-analysis of the deposited data

Results flagged for a closer look

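The MYC level of peroxide replicate 6, in batch 2, was 111 CPM, and the nearest of the other 7 peroxide libraries held 158 CPM, a gap of 0.582 of the group's range, above Dixon's critical value for 8 samples. Without that library the log2 fold change of MYC was -0.64 (edgeR quasi-likelihood test, adjusted p = 2.25e-05). The MLX level of control replicate 2, in batch 1, was 113 CPM, and the nearest other control held 92.5 CPM, a gap of 0.547 of the range. Without it the log2 fold change of MLX was -0.21 (edgeR, adjusted p = 0.00622). Of 20 groups checked 2 stood out in this way, and chance gives about 1 in 20.

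The rise of MXD1 differed between the batches, with batch 2 minus batch 1 at -0.718 on the log2 scale (edgeR interaction, adjusted p = 0.0254). What sets the batches apart was not tested.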

How the results depend on the processing

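Across the alternatives 2 to 4 of the 10 genes were called higher and 3 to 4 lower. MYC, MXD1, MXD4, MGA and MLXIP kept direction and call in every alternative run. MNT (0.23, adjusted p = 0.138) and MLX (-0.08, adjusted p = 0.308) lost their calls in batch 2 alone, and MXI1 gained one in batch 1 alone (0.31, adjusted p = 0.0345), all with edgeR. Among named genes outside the 10, CDK9, TFDP1 and CD2 lost their calls in batch 2 alone and CBX3 in batch 1 alone. TFDP1, CD2 and CBX3 also lost theirs with no batch term. Their highest adjusted p was 0.0995 for CDK9, 0.755 for TFDP1, 0.145 for CD2 and 0.149 for CBX3 (edgeR). Among the genes and ratios recomputed under the alternatives, the values that changed sign were not called ones. MAX was -0.0052 with total counts, MXD3 0.107 and MXI1 -0.0491 in batch 2 alone, the B cell marker CD79A -0.0815 in batch 1 alone, and the ratio of MYC to MLXIP 0.0798 in batch 2 alone. With single libraries left out MXD3 ranged from -0.0992 to 0.0200, the highest without control replicate 3. The cause was not tested.

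Scaled by total counts instead of TMM factors, the median of all genes moved to -0.08 from -0.01, and 39.2% of calls were higher, against 49.8% with TMM factors. Genes called lower then numbered 2 in PRC1.6 (1 with TMM), 13 among targets MYC raises (8), 2 among relatives of the network (1) and 4 among T cell markers (2). Genes called higher numbered 1 among MLXIP and MLX targets (2) and 2 among cofactors (4). With no filter on low counts 5150 genes were called higher, against 3391, from 38177 tested. Of the 9 ratios 0 were called in batch 2 alone, against 7 in batch 1 alone with as many libraries. The smallest exact permutation p within a batch is 0.0286, so after adjustment a ratio passes only where several reach it together. In batch 1 the 7 called ratios all had that p (exact permutation adjusted p = 0.0367). In batch 2 only the ratio to MXD1 had it (exact permutation adjusted p = 0.129). These counts therefore cannot show whether the batches differ. Of the 10 network genes 0 to 1 were called for a difference between batches when single libraries were left out. In 3 called list genes that were not recomputed in this way, CREBBP, ELAVL1 and FARSA, the sign in batch 2 was opposite to that over all libraries.

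No pairing by replicate number was seen. Same-numbered libraries correlated at -0.15 to 0.17 in their deviations from the means of their group and batch, which cannot exclude a pairing. With the replicate block 3313 genes were called higher and 3374 lower, the 10 genes kept 3 and 4, and MLXIP and MLX targets had 1 called higher. Of 8 numbers 1 correlated best with itself.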
